A study of Homo sapiens with 4 samples.

Results

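The array of untransfected HCT116 cells was described across genes, as the baseline from which the other cells of the series were derived. HCT116 is an established human colorectal carcinoma line, labelled as colorectal adenocarcinoma. All probe sets with 1 gene symbol were taken, which were 41097 of the 54675 probe sets on the array, and they represented 19775 genes. A probe set is a group of short probes that together report 1 transcript or a few related ones.

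The series held 4 arrays, 1 per group: untransfected cells, cells with a non-targeting hairpin RNA (shCTRL), and cells with hairpin #1 or #2 against KSR1, a scaffold protein of the RAF, MEK and ERK kinase cascade. All cells were HCT116 grown in serum-containing medium. The shCTRL and KSR1 cells had been lipofected and selected as clones with puromycin, and the untransfected cells had not. The labels do not say whether an array came from 1 clone or several. There were no replicate arrays, so no value below has a replicate error, and the other 3 arrays served only to show how far a value moved in cells of the same line.

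HCT116 is known as a poorly differentiated, near-diploid line with defective DNA mismatch repair, an activated RAS pathway and a stabilised beta-catenin, the transcriptional arm of Wnt signalling. Gut epithelium is built of simple keratins and tight adhesion proteins, and its absorptive and secretory cells are set apart by transcription factors such as the CDX and HNF4 families. In crypts, Wnt signalling keeps stem cells dividing, while TGF-beta and p53 restrain growth.

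The values were intensities on a linear scale and ran from 4.78 to 26251 on this array. Olfactory receptors, whose transcripts belong to the nose, gave a background on the same array. Their 135 probe sets, for 102 genes, had a median of 19.6 and a 95th percentile of 100.03, and a gene above that limit is called above background here. Of the 19775 genes, 10081 (51.0%) were above it, as were 40.9% of the 41097 probe sets. The intensity at the 50th percentile of genes was 106.8, at the 75th 475.0 and at the 99th 6884.7. The brightest 10.0% of genes, 1978 of them, began at 1297.4. In bulk RNA, a low signal from all cells and a high signal from few cells cannot be told apart.

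**Figure D1:**
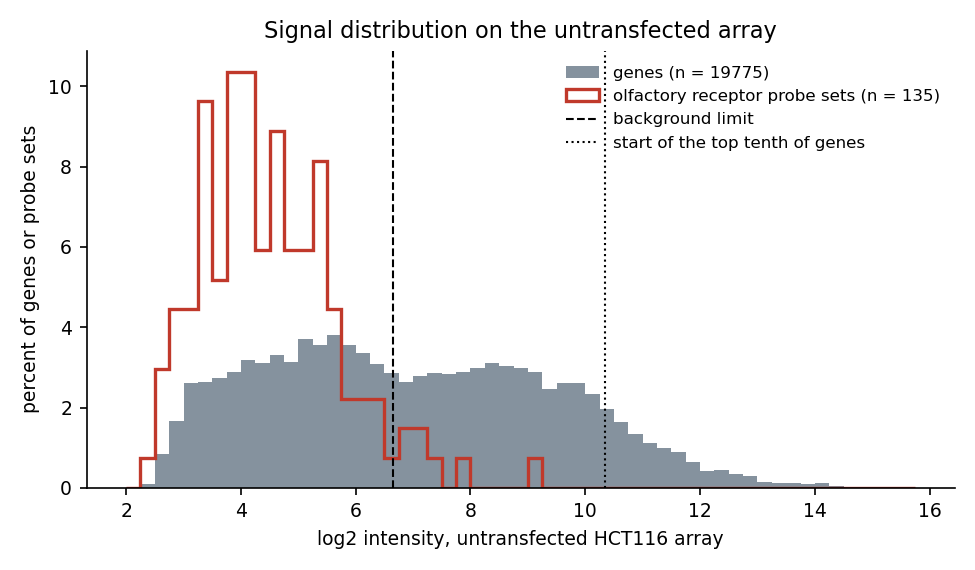
Distribution of log2 intensity on the untransfected array, as percent of 19775 genes (grey bars) and of 135 olfactory receptor probe sets (red line). The dashed line is the background limit of 100.03 and the dotted line marks 1297.4, where the brightest 10.0% of genes begin; most olfactory receptor probe sets lie left of the dashed line.

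Of the olfactory receptor probe sets above it, the brightest belonged to the pseudogenes OR7E104P (545.1) and OR7E37P (240.6). The next were OR51B4 at 159.4 and OR51B5 at 150.9 and 138.8, which were all higher on the other 3 arrays, OR51B4 at 251.0 to 308.6. The same limit was 121.0 in shCTRL, 117.9 with hairpin #1 and 128.6 with hairpin #2.

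Probe sets differ in how strongly they bind, so the ranks below order signals and not amounts of transcript. The spread over probe sets of 1 gene shows how far such signals differ, and what part of the spread came from binding was not tested. Among 10523 genes with 2 or more probe sets, the brightest and dimmest differed by a median of 2.10 log2 units, which is 4.3-fold, and 4771 genes (45.3%) had probe sets on both sides of the background limit. The widest range among bright genes was that of CLTC, the clathrin heavy chain of coated vesicles, with 3 probe sets between 6.2 and 10739.9. KITLG, the ligand of the receptor KIT, ran from 6.3 to 9722.6 over 4 probe sets, and ITGB1, the beta-1 integrin, from 5.8 to 7046.6 over 7. Each gene was represented by the probe set whose mean over the 4 arrays was highest. Genes with more probe sets were above background more often, at 34.6% with 1 probe set, 61.5% with 2 or 3 and 76.4% with 4 or more. A signal at background does not show that a transcript was missing. RPLP2, an acidic protein of the ribosome that dividing cells need, lay at 50.8, and the translation initiation genes EIF3C and EIF4A2 at 90.8 and 12.4 on 1 probe set each.

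The brightest transcripts belonged to protein synthesis and to mitochondria. Of the 30 brightest genes, 18 coded for ribosomal proteins and 4 were encoded by the mitochondrial genome. COX1, a mitochondrial subunit of cytochrome oxidase, was the brightest gene at 25374, followed by the ribosomal protein gene RPL41 at 24473. The mitochondrial ND4 (23548), the elongation factor EEF1A1 (23252) and the mitochondrial COX2 (23198) and ATP6 (22769) came next. The others outside the ribosome were TMSB10, which binds actin monomers (20599), the glycolytic GAPDH (20412), the chaperones HSPD1 (18407) and HSP90AA1 (17969.5), the ubiquitin gene UBB (18190), the translation-linked TPT1 (18175) and the alpha-tubulin TUBA1B (17615). All 30 lay between 17615 and 25374, a narrow range near the top of the scale. Ribosomal protein genes, tubulins and other families with many pseudogenes or near copies share sequence, so single members of them are uncertain. The 30 genes together held 5.5% of the summed signal of all genes, and the first 1000 held 48.5%.

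Epithelial genes were mostly bright. Of 28 epithelial genes measured, 26 (92.9%) were above background, beside 51.0% of all genes and 58.8% of protein-coding genes, and 12 were among the brightest 10.0%. KRT18, a keratin of simple epithelia, was at 13160.5 in untransfected cells and at 13455, 12123 and 16755 in shCTRL, hairpin #1 and hairpin #2 cells. Its partner KRT8 was at 6389, 6080.0, 5682 or 8309 in the same order. The adhesion molecule EPCAM was at 7855 and between 7917 and 8119 on the other arrays, and KRT19 was at 7795. CDH1, the adhesion protein E-cadherin, was at 1660.3 and between 1775 and 2335 on the others. The other CDH1 probe set was below the limit, at 48.4 here and between 85.6 and 94.1 on the other arrays. The desmosome genes DSP and DSG2 were at 4331 and 3939.6. The exceptions were the tight junction genes CLDN2 (52.9) and CLDN1 (25.7).

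Genes that mark the colon itself were mostly at background. Of 28 intestinal identity genes measured, 6 (21.4%) were above the limit, beside 51.0% of all genes and 58.8% of protein-coding genes. Between 4 and 6 were above each array's own limit on the other arrays. The highest was KLF5, a transcription factor of crypt growth, at 467, with 254 in shCTRL, 366 with hairpin #1 and 1097 with hairpin #2. GATA6 (234), FOXA3 (177), CDX1 (159), HNF4G (116) and USH1C (108) were the others. Of the 6 defining colon markers (CDX1, CDX2, VIL1, CDH17, LGALS4 and GPA33), CDX1 was above the limit, by less than 2-fold. The master regulator CDX2 was at 89.3, just below the limit, and at 130.6 with hairpin #2, above the 128.6 of that array. A limit from protein-coding olfactory receptors only, 84.3, would put CDX2 above it in untransfected cells. The brush border protein VIL1 was at 62.3, the surface antigen GPA33 at 46.0, the lectin LGALS4 at 38.5 and the cadherin CDH17 at 15.5. GUCY2C, the gut guanylate cyclase receptor, was at 9.3, at percentile 5.0 of all genes. TSPAN8 was at 10.2 here but at 236 with hairpin #2. The labelled epithelial origin was thus seen in epithelial genes, while 5 of the 6 defining colon markers did not exceed the limit, CDX2 narrowly.

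**Figure D2:**
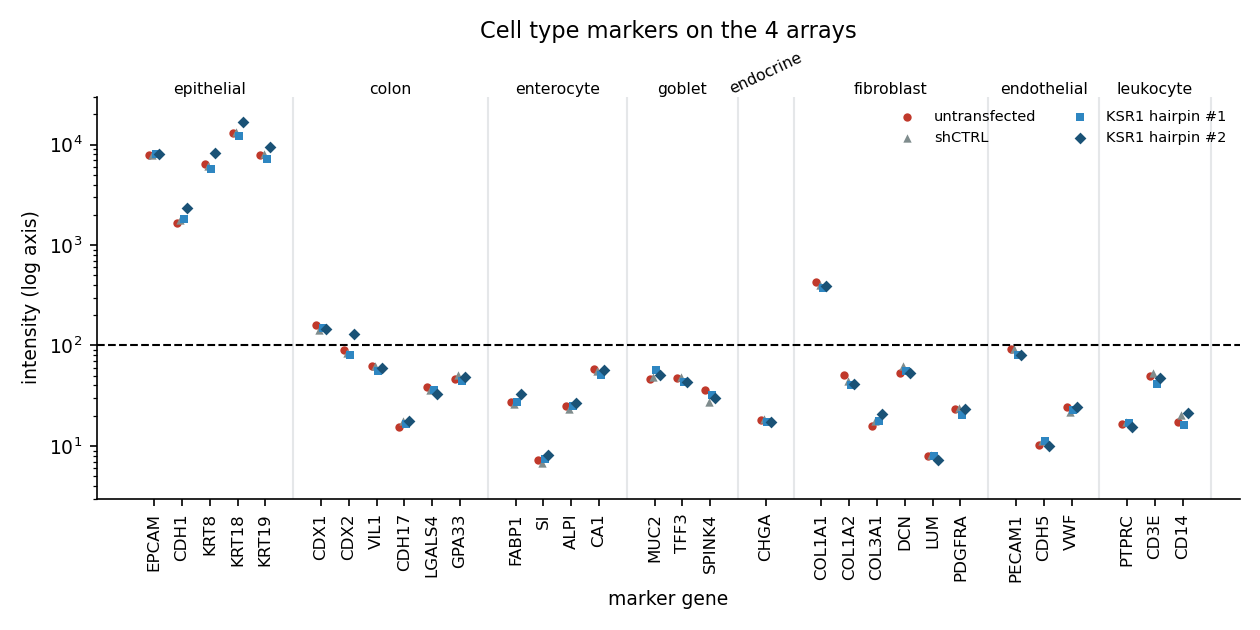
Intensity (log axis) of the cell type markers on the 4 arrays, 1 array per symbol, with the background limit of the untransfected array (100.03) dashed. The 5 epithelial genes lie far above the line on every array, while among colon, enterocyte, goblet, endocrine, fibroblast, endothelial and leukocyte markers CDX1 and COL1A1 are above it in untransfected cells.

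Genes of differentiated gut cells were mostly at background. Of 22 enterocyte genes, 4 (18.2%) were above it, beside 51.0% of all genes and 58.8% of protein-coding genes. The 4 were the carbonic anhydrase CA2 (1057), the sulfate transporter SLC26A2 (368), the peptidase DPP4 (296) and KRT20 (166). DPP4 and KRT20 varied between arrays, DPP4 lying at 94.6 in shCTRL and KRT20 between 52.5 and 275. The sucrase gene SI was at 7.2, the chloride exchanger SLC26A3 at 9.3, the fatty acid carrier FABP1 at 27.4 and the alkaline phosphatase ALPI at 25. Of 25 secretory genes, 2 were above it, the goblet cell regulator SPDEF at 146 and AVIL, an actin regulator of tuft cells, at 127. The other AVIL probe sets were at 23.3 and 20.4. The mucin MUC2 was at 46.2, TFF3 at 47.1, SPINK4 at 36.2 and the endocrine granule protein CHGA at 18.2.

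Stem cell genes of the crypt were divided. Of 19 measured, 9 were above background (47.4%, beside 51.0% of all genes and 58.8% of protein-coding genes). The hyaluronan receptor CD44 was at 3539, with 5848 in shCTRL, 3632 with hairpin #1 and 2694 with hairpin #2. The receptor phosphatase PTPRO was at 3485 and at 1168 with hairpin #1, but its other 2 probe sets were at 10.2 and 11.5. The adhesion molecule ALCAM was at 1970.1, the RNA-binding MSI2 at 1462 and PROM1, the CD133 antigen, at 698. The markers most used for crypt stem cells were at background: LGR5, the R-spondin receptor, at 31.9, ASCL2 at 27.7 and OLFM4 at 6.7, and their values on the other arrays stayed between 6.2 and 28.9.

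Mesenchymal genes were mostly at background as well, with 5 of 20 above it, or 2 to 8 over other limits and ways of taking a gene's value. S100A4, a calcium-binding protein, was at 3317 and higher on the other arrays, at 6938 to 7539.6. CALD1, which binds actin, was at 2807 and ACTA2, FN1 and TAGLN were at 203, 155 and 118. The transcription factors that drive the transition were below the limit, SNAI1 at 82.3, ZEB2 at 19.3 and TWIST2 at 11.2.

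Markers of other cells that a culture could hold were looked at in the same way, beside 51.0% of all genes and 58.8% of protein-coding genes above background. Of 14 fibroblast markers 2 (14.3%) were above background, COL1A1 at 433 and FBLN1 at 162. Other probe sets of COL1A1 ran from 7.8 to 228.3 and those of FBLN1 from 49.8 to 95.8. COL1A2, the partner chain of COL1A1, was at 51.1, COL3A1 at 15.7 and LUM at 7.9. Of 12 endothelial markers 1 (8.33%) was above background, EGFL7 at 196, and CDH5 was at 10.3. Of 12 leukocyte markers 0 were above it, PTPRC lying at 16.5. Among 34 genes restricted to other organs, 6 (17.6%) were above it. The synaptic calcium sensor SYT1 at 1195 was the brightest, and albumin (ALB) was at 11.5. These 34 genes had a median of 51.1, above the 19.6 of the olfactory receptor probe sets, and their own 95th percentile over probe sets was 197.4.

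**Figure D3:**
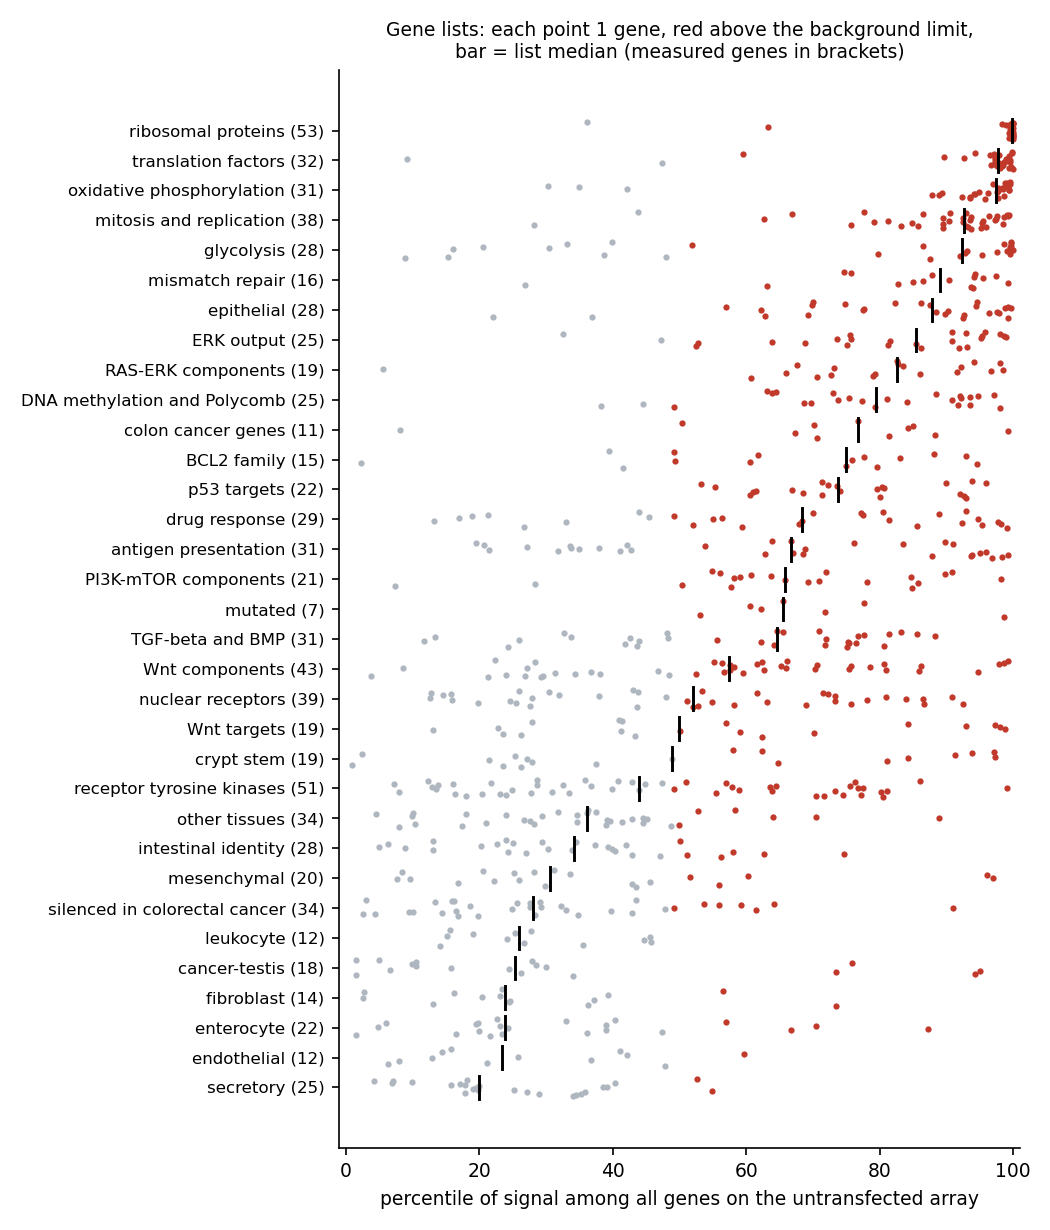
Percentile of signal among all 19775 genes for every measured member of 33 gene lists on the untransfected array, sorted by list median (bar), with genes above the background limit in red. Ribosomal proteins (median 99.8) stand at the top and the secretory cell list (median 19.9) at the bottom, and the lists share some members.

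Genes known to be altered in HCT116 were examined next, of which 7 of the 10 listed were analysed here. All 7 were above background in untransfected cells, and 1, beta-catenin, was among the brightest 10.0%. With so few genes the share is read beside 51.0% of all genes only as a description. On the other arrays 5 to 7 of them were above each array's own limit.

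CTNNB1, which encodes beta-catenin and carries an activating change in this line, was at 5803, with 6110.5 in shCTRL, 5845 with hairpin #1 and 6202 with hairpin #2. All 4 arrays lay close together on this probe set, and its other 2 probe sets were at 161 and 175. CDKN2A, the locus of the cell cycle inhibitor p16 and of ARF, was at 556, 503, 550.3 and 480.5 in the same order, and its other probe sets were at 153 and 20.2. TGFBR2, the type II TGF-beta receptor with a frameshift in its coding repeat, was at 395 in untransfected cells and at 469.5, 528 and 565 on the others. The untransfected array was the lowest of the 4 for it. ACVR2A, the activin receptor altered in the same way, was at 226 and between 234 and 282 elsewhere. BAX, a pore-forming death effector, was at 207, with 281 in shCTRL, 263 with hairpin #1 and 121 with hairpin #2. MSH3, a mismatch recognition protein, was at 129.8, just above the limit, with 115 to 127 on the other arrays, while its other probe sets were at 68.2 and 7.8. MRE11, a nuclease of double-strand break repair, was at 277 and between 264 and 359 on the other arrays, while its other probe sets were at 43.5 and 10.1. Arrays of this kind measure a transcript's signal and do not show whether its sequence is altered.

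**Figure D4:**
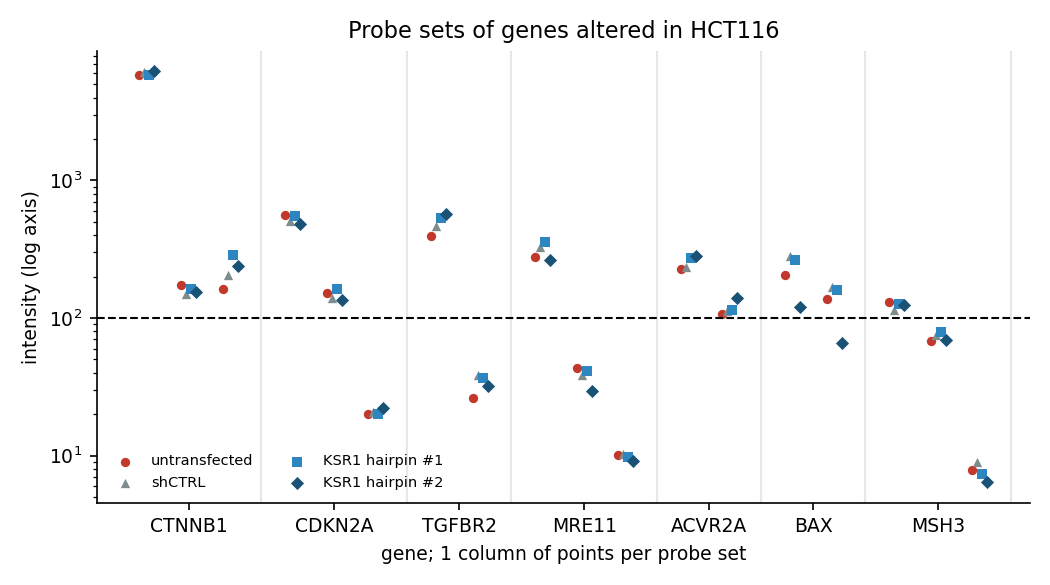
Intensity (log axis) of every probe set of 7 genes altered in HCT116, 1 column of points per probe set and 1 symbol per array, with the background limit (100.03) dashed. For CTNNB1, CDKN2A, TGFBR2, MRE11 and MSH3 the probe sets of 1 gene lie farther apart than the 4 arrays do on any of them.

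The partners of mismatch repair were bright. Of 16 analysed, 15 (93.8%) were above background, beside 51.0% of all genes and 58.8% of protein-coding genes. Of the 16, 8 were among the brightest 10.0%. The replication clamp PCNA was at 7936 and between 7332 and 7868 on the other arrays. MSH6, which finds single mismatches, was at 1993, above the 1224 to 1337 of the other arrays, and MLH3 was at 239.7. The clamp loader subunits RFC4 and RFC5 were at 2532 and 2057, and the single-strand binding subunits RPA1 and RPA3 at 3712 and 2121. MSH4, a meiotic member, was at 32.9.

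Other genes often mutated in colorectal cancer were above background in 10 of 11 cases (90.9%), beside 58.8% of protein-coding genes. TCF7L2, the factor that beta-catenin binds on DNA, was at 7942, with 6582, 7573 and 5508 in shCTRL, hairpin #1 and hairpin #2 cells. The chromatin remodeller ARID1A was at 911, the shared SMAD4 at 710.1 and the ubiquitin ligase subunit FBXW7 at 308. SOX9, a progenitor factor, was at 864, the lowest of the 4 arrays, which reached 2492 in shCTRL. AMER1, a member of the beta-catenin destruction complex, was at 11.5 on its single probe set.

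Genes of the path from RAS to ERK were looked at as its components and as transcripts that ERK can induce. Activity of the kinases was not measured, and MYC and CCND1 were also on the list of Wnt targets. Of 19 components analysed, 18 (94.7%) were above background, beside 51.0% of all genes and 58.8% of protein-coding genes. The phosphatase PTPN11 was at 5166, the RAF inhibitor PEBP1 at 4688, the adaptor SHC1 at 3103 and the scaffold IQGAP1 at 2038. The kinase MAP2K1, known as MEK1, was at 1616 and MAPK3, known as ERK1, at 313. KSR1 was at 209 on the probe set used, and its other 3 probe sets were between 31.0 and 60.4. NF1, which switches RAS off, was at 9.7 on its single probe set. Transcripts that ERK induces were above background for 23 of 25 genes (92.0%), and 11 were among the brightest 10.0%. IER3 was at 6846, with 9182, 9406 and 8430.4 on the other arrays, PHLDA1 at 5797 and MYC at 4576. The chromatin protein HMGA2 was at 2631 and the zinc finger transcription factor EGR1 at 2383. SPRY2, a feedback inhibitor, was at 127, near the limit, and FOS was at 90.2, below it here but at 175 with hairpin #1.

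Among receptor tyrosine kinases, the surface receptors of growth factors, 23 of 51 (45.1%) were above background. The share was 51.0% for all genes and 58.8% for protein-coding genes. Only 1 receptor was in the brightest 10.0%. That was MET, the receptor of hepatocyte growth factor, at 7150.0, with 5867, 5804 and 5527 on the other arrays. RYK was next at 972, followed by FGFR3 at 695, EGFR at 664, FGFR1 at 652 and MST1R, a relative of MET, at 551, in the order of the probe sets used. Another EGFR probe set was at 842.5, above FGFR3. The EGFR probe set used was at 811 in shCTRL, 452 with hairpin #1 and 510.1 with hairpin #2. Among receptors typical of endothelial cells, FLT1 was at 152 and KDR, TIE1, FLT4 and TEK were below the limit at 11.4, 15.4, 39.6 and 52.5. Over other limits and ways of taking a gene's value that kept all 51 receptors, 14 to 30 were above background. For the PI3K, AKT and mTOR genes that follow, the range was 12 to 19. Of 21 PI3K, AKT and mTOR genes, 19 were above background. RHEB, the GTPase that activates mTORC1, was at 4926, the translation repressor EIF4EBP1 at 1406 and the catalytic subunit PIK3CB at 897. The regulatory subunit PIK3R1 was at 109, near the limit, and PIK3CG, which is typical of leukocytes, was at 11.

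Wnt signalling genes were uneven. Of 43 components, 27 (62.8%) were above background and 4 were in the brightest 10.0%: TCF7L2, CTNNB1, the kinase CSNK1A1 at 4212 and the ligand WNT16. WNT16 was at 2234, the highest of the 4 arrays, against 424, 1149 and 321 in shCTRL, hairpin #1 and hairpin #2 cells. Of the other 14 ligands, WNT9A (195), WNT10B (164) and WNT7B (126) were above background, and WNT1 and WNT5A were at 24.7 and 8.6. Of the nuclear factors beside TCF7L2, TCF7L1 was at 286, BCL9L, BCL9 and PYGO2 were at 230.3, 160.4 and 148, and LEF1 and PYGO1 were at background, at 26.1 and 35.1. Of 19 Wnt target genes, 10 (52.6%) were above background, beside 51.0% of all genes and 58.8% of protein-coding genes. DKK1, a secreted inhibitor of the pathway, was at 6190.5, with 3986, 2721 and 5079.9 on the other arrays, and CCND1, cyclin D1, was at 1746. RNF43, a ubiquitin ligase that removes Wnt receptors, was at 362, with 929.5, 619.7 and 235 elsewhere. AXIN2, the most used readout of the pathway and chosen here after its value was seen, was at 229.6. It was at 344, 208 and 932.5 in shCTRL, hairpin #1 and hairpin #2 cells. Its other probe sets were at 105.5, 41.3 and 40.3 in untransfected cells. DKK4 (26.6) and APCDD1 (15.5) were at background.

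TGF-beta and BMP genes were above background in 19 of 31 cases (61.3%, near the 58.8% of protein-coding genes), and 0 were in the brightest 10.0%. The signal carriers were the brightest, SMAD2 at 1146, SMAD5 at 944, SMAD4 at 710.1 and SMAD3 at 555, together with SKI, a repressor of SMADs, at 806 and the receptor TGFBR1 at 677. Of 9 ligands measured, 2 were above background, TGFB1 at 479 and BMP4 at 397, and the dimmest were BMP2 at 31.5, TGFB2 at 28.7 and INHBA at 15.8. The receptor BMPR1B was at 14.4.

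Targets of p53 were above background in 22 of 22 cases, with a median at percentile 73.8. The share was 51.0% for all genes and 58.8% for protein-coding genes. With a gene's probe sets averaged, 17 of the 22 targets were above background, beside 7963 of all 19775 genes. CCNG1, a cyclin that p53 induces, was at 2760, GADD45A at 1945 and the cell cycle inhibitor CDKN1A at 1764. CDKN1A was at 2474 in shCTRL, 2058 with hairpin #1 and 1702 with hairpin #2. The stress cytokine GDF15 was at 1680.1 here and between 2919 and 4061 elsewhere. The dimmest were PHLDA3 at 131 and TP53I3 at 149.5, the latter at 205 to 306 on the other arrays. In the BCL2 family, which decides between survival and death, 12 of 15 genes (80.0%) were above background. Of the survival genes MCL1 was at 2215 and BCL2L1 at 627, while BCL2 itself was at 66.3 and BCL2A1 at 7.7. The death-promoting PMAIP1, BIK and BID were at 1765, 1137 and 800.1.

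Cycling and metabolic genes were among the brightest groups. Of 38 cell cycle genes, 36 (94.7%) were above background, beside 58.8% of protein-coding genes, and 23 were in the brightest 10.0%. The ribonucleotide reductase subunit RRM2 was at 9369, thymidylate synthase (TYMS) at 7108, the helicase subunit MCM6 at 5614 and the mitotic kinase CDK1 at 5379. The inhibitor CDKN2B was at 74.1 and CCND2 at 34.9, both below the limit, CDKN2B lying at 36.5 to 43.5 on the other arrays. Of 28 glycolysis genes, 19 were above background and 15 in the brightest 10.0%. The 4 dimmest were isoforms of other tissues. LDHA was at 15374, LDHB at 13302, ENO1 at 12453 and ALDOA at 11807, whereas PGAM2 of muscle was at 23.6, GAPDHS of sperm at 18.5, and the glucose transporters SLC2A4 of muscle and fat and SLC2A2 of liver were at 17.8 and 12.2. Oxidative phosphorylation had 28 of 31 above background and 25 in the brightest 10.0%. The ATP synthase subunit ATP5F1A was at 11611 and COX4I1 at 9604, and the 3 genes below the limit were the muscle and lung forms COX4I2 (68.6), COX6A2 (48.1) and COX7A1 (38.8). Of 53 ribosomal protein genes, 51 were in the brightest 10.0%. The exceptions were RPL27A at 244 and RPLP2.

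Genes whose promoters are often methylated in colorectal tumours were mostly at background, and genes of the DNA methylation machinery were mostly above it. Of 34 genes often methylated in tumours, 7 (20.6%) were above the limit, beside 51.0% of all genes and 58.8% of protein-coding genes. Their share was near the 21.4% of intestinal identity genes and the 17.6% of genes restricted to other organs. The brightest was the helicase-like HLTF at 1431. The count of 7 was 3 to 11 over other limits and ways of taking a gene's value. RASSF1 was at 257, RUNX3 at 218, TIMP3 at 189.9, the repair enzyme MGMT at 155 and RASSF2 at 135. The Wnt antagonists WIF1 and DKK2 were at 7.9 and 9.0, the neuropeptide TAC1 at 8.2 and GATA5 at 12.6. Of 25 genes for DNA methylation and Polycomb, 23 (92.0%) were above the limit. The maintenance methyltransferase DNMT1 was at 4640.4 and its partner UHRF1 at 1895, while DNMT3A was at 102, TET1 at 77.1 and DNMT3L at 56.3. The Polycomb methyltransferase EZH2 was at 1622, above the 1206 to 1318 of the other arrays, and SUZ12 was at 1859.6. DNA methylation was not measured here.

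Antigen presentation genes were above background in 19 of 31 cases (61.3%), a share near the 58.8% of protein-coding genes. The light chain of MHC class I, B2M, was at 8355, HLA-C at 5012 and HLA-B at 3234, and probe sets of these near-identical genes cannot be kept apart with certainty. The loading chaperones PDIA3 and CALR were at 2768 and 2369. The immunoproteasome subunit PSMB8 was at 24.8, the class II chain HLA-DPA1 at 33.4 and the immune ligand PDCD1LG2 at 23.7. Of 18 cancer-testis genes, which are normally active in germ cells, 4 were above background. MAGEB2 was at 2372, with 2451, 2700.2 and 2819 on the other arrays, MAGEA6 at 2083, PRAME at 499.9 and MAGEA12 at 433, and members of the MAGEA family share sequence. MAGEA4 was at 7.1.

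Genes tied to drugs used in colorectal cancer were above background in 21 of 29 cases (72.4%), beside 58.8% of protein-coding genes. TYMS, the target of 5-fluorouracil, and DUT, which keeps uracil out of DNA, were at 7108 and 4705. TOP1, the target of irinotecan, was at 4066 and TK1, which salvages thymidine, at 2459.6. GSTP1, a conjugating enzyme, was at 2246, with 3035, 2424 and 3674 elsewhere. The efflux pump ABCB1 was at 24.5, and UGT1A1, which clears the active form of irinotecan, at 15.8. Among nuclear receptors, 21 of 39 (53.8%) were above background, near the 51.0% of all genes and the 58.8% of protein-coding genes. The lipid sensors PPARD and PPARG were at 1672 and 1004. PPARG was at 278 in shCTRL, 314 with hairpin #1 and 1188 with hairpin #2. The steroid receptors NR3C2 and PGR were at 18.2 and 15.3.

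Promoter sequence was then set beside the signal, as a feature the choice of the array did not use. RefSeq promoter windows of 300 bases, from 250 before to 50 after a gene's start in build GRCh38.p14, were matched by gene identifier to 15381 genes, and the first window listed for a gene was used. CpG dinucleotides, which are dense in promoters of broadly active genes, numbered a median of 27 in the brightest 10.0% of genes and 10 in genes at background. At least 15 were present in 1501 of 1667 of the former, 3051 of 7048 (43.3%) of the latter and 48.9% of all 35116 windows. The number of 15 was chosen after values were seen. Along deciles of signal it went from a median of 7 in the dimmest decile to 20 in the fifth and between 26 and 28 from the sixth on.

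**Figure D5:**
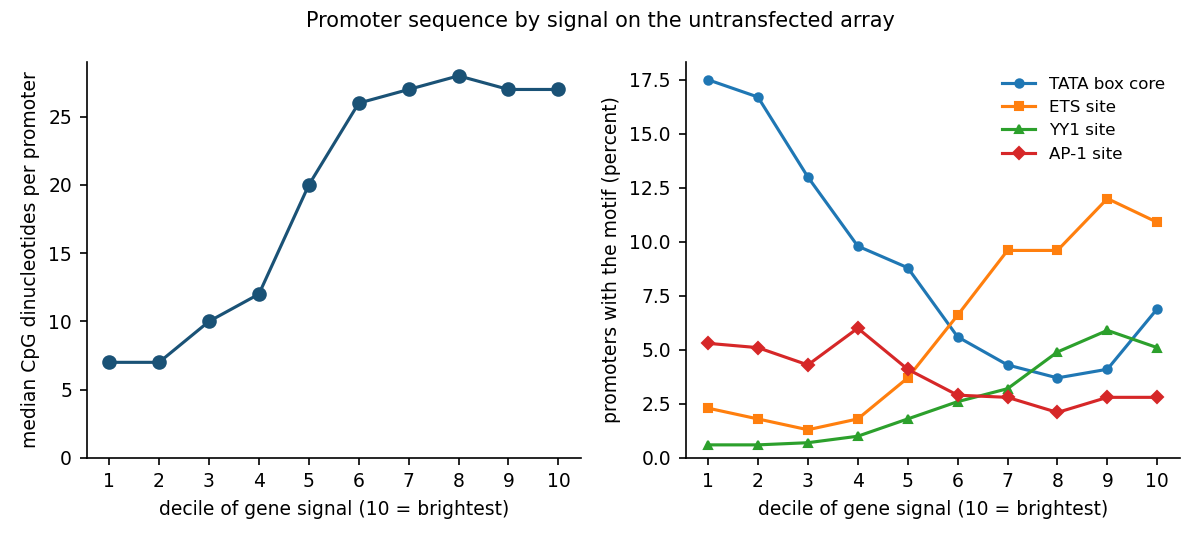
Median number of CpG dinucleotides per promoter (left) and percent of promoters that hold a motif on either strand (right), by decile of gene signal on the untransfected array (10 = brightest). CpG rises from 7 to 27 and the ETS site from 2.3% to 10.9%, while the TATA box core falls from 17.5% to 3.7% in decile 8 and stands at 6.9% in decile 10.

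Of 10 motifs searched on both strands, some were unequal between bright and background genes. The ETS site CCGGAAGT was in 10.9% of promoters of the brightest genes, 2.1% of those at background and 4.1% of all windows. The YY1 site AAGATGGCG was in 5.1%, 0.9% and 1.7%. The TATA box core TATAAA was in 6.9%, 13.2% and 11.5%, and the AP-1 site TGACTCA in 2.8%, 5.0% and 4.9%. The GC box GGGCGG was in 71.3%, 42.3% and 45.0%, the E-box CACGTG in 11.9%, 6.9% and 7.3%, and the NRF1 site GCATGCGC in 6.0%, 2.3% and 3.1%. The cAMP response element TGACGTCA was in 3.4%, 1.6% and 1.8%, and the E2F site TTTCGCGC in 1.5%, 0.4% and 0.5%. The CCAAT box was in 38.5%, 34.8% and 34.6%, nearly level. Overlaps between motifs were allowed, and a match is a run of letters and not a bound site.

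CpG content moved with these motifs, so the shares were also taken among promoters with at least 15 CpG. There the TATA box core was in 5.5% and 4.6%, the AP-1 site in 2.1% and 1.8% and the GC box in 76.3% and 77.2%, so these shares were close. The ETS site was in 11.3% and 4.2%, the YY1 site in 5.4% and 1.8% and the E2F site in 1.7% and 0.6%. The CCAAT box, nearly level over all promoters, was in 38.4% and 30.5% here. The E-box was in 12.7% and 10.2%, the NRF1 site in 6.7% and 4.5% and the cAMP response element in 3.7% and 2.7%. Among 47 ribosomal protein genes with a window, 19.1% held the ETS site.

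Windows of 2 bright and 2 background genes show the contrast, with CpG dinucleotides and the TATA box core in capitals. TUBA1B (17615) had 43 CpG and lies at chr12:49131346-49131645 on the minus strand. DKK1 (6190.5) had 20 and a TATAAA that begins 30 bases before the start, at chr10:52314031-52314330 on the plus strand. FABP1 (27.4) had 7 and a TATAAA that begins 31 bases before the start, at chr2:88128013-88128312 on the minus strand. SI (7.2) had 0 CpG, at chr3:165078447-165078746 on the minus strand. All 4 are read 5′ to 3′ along the gene. A TATA box core within 1 base of the same distance was thus present in a bright gene and in a gene at background.
TUBA1B: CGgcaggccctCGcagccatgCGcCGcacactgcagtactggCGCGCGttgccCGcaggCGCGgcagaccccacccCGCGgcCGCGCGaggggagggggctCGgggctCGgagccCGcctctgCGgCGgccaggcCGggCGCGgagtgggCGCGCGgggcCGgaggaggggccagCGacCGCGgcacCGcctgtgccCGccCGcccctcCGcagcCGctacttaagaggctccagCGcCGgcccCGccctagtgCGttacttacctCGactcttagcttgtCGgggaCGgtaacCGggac
DKK1: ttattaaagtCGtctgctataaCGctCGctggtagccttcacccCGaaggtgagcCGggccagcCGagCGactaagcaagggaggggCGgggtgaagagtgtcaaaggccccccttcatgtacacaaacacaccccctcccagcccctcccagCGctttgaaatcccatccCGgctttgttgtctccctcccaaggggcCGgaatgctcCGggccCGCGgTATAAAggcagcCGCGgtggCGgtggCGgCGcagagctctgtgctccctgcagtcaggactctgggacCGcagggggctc
FABP1: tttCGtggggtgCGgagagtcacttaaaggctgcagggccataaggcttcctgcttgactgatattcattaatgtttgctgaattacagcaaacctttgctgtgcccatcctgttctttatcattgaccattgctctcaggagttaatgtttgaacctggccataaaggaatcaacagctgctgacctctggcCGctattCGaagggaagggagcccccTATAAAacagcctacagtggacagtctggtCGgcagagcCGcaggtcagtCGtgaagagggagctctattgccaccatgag
SI: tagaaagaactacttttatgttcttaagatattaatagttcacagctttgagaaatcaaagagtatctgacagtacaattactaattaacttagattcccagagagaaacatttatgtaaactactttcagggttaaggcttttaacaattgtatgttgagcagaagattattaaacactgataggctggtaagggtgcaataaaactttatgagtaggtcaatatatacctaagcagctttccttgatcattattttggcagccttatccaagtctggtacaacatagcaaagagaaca

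The untransfected array was last set beside the other 3 as a check of how stable its values were. Of the 10081 genes above background, 9760 (96.8%) were within 2-fold of their value on all 3 other arrays, and 9113 genes were above each array's own limit on all 4. Of the 1978 genes in the brightest 10.0%, 1694 were there on all 4 arrays. A few genes stood apart, which with 1 array per group has no test. CPM, a carboxypeptidase of the cell surface, was at 331 in untransfected cells against 42.2, 45.3 and 47.5 in shCTRL, hairpin #1 and hairpin #2 cells. AGPAT4, an acyltransferase, was at 528 against 109, 89.5 and 105, and the noncoding AGPAT4-IT1 at 390.5 against 102, 94.3 and 92.3. UTRN, which links the cytoskeleton to the membrane, was at 833 against 246, 210.0 and 234, and SAMD3 at 187 against 45.0, 43.7 and 16.5. ANXA10, an annexin, was at 4170.1 against 208, 66.3 and 1013. On the low side, RHOBTB3 was at 734 against 1775, 2394 and 1571, and the ubiquitin ligase ZNRF3 at 188 against 515, 439.9 and 954. PRKAA2, LIPG, MAP2 and SATB1 were below the limit here, at 16, 27.9, 45.5 and 73.9. Transfection, selection, clone and array differ together between the untransfected cells and the others and cannot be told apart. Actin control probe sets, which compare the 3′ and 5′ ends of a transcript, gave a ratio of 2.68 here and of 2.01 to 2.22 on the others, and its part in these differences was not tested.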

How the data were processed

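Biotin-labelled cRNA from total RNA of HCT116 cells was hybridised to 1-colour Affymetrix arrays, per the labels. The authors deposited linear intensity values, 1 per probe set and array; how background, probes and arrays were corrected, summarised and normalized is not stated in the labels. Nothing was rescaled, and ranks within an array need no scaling. Names came from the platform annotation: 41097 had 1 gene symbol, 1801 several and 11777 none, and 41043 of the first were matched by gene identifier to RefSeq (GRCh38.p14, names only, 0 symbols updated). Each gene was represented by the probe set whose log2 intensity averaged highest over the 4 arrays. The limit of background was the 95th percentile of olfactory receptor probe sets. With 1 array per group no test was made. Precision is limited by the number of arrays, as arrays have no sequencing depth.

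Of 920 genes in 33 lists, 809 were analysed; listed genes without a value are not analysed here. The members and lists were chosen with earlier results of these data known. Named genes were the 30 brightest, all genes of the altered list, 6 brightest and 4 dimmest of other lists, fixed cell type markers, 8 with the widest range over probe sets, and 6 on each side of the other arrays' range. Further ligands, receptors and nuclear factors of the Wnt, TGF-beta and endothelial groups were named after their values were seen. Alternatives covered the limit and the value of a gene. Python 3.11.15, numpy 2.4.6, pandas 2.3.3 and matplotlib 3.10.9 were used. The code for the limit was run on simulated data, in which olfactory receptors and unexpressed genes were given the same background level. That run could not show whether the limit suits this array.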

Additional observations from a re-analysis of the deposited data

Results flagged for a closer look

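Signal was present in probe sets outside the genes described. Of 11721 probe sets without a gene symbol, other than array controls, 1847 (15.8%) were above the background limit, and 174 of them exceeded 1297.4, where the brightest 10.0% of genes begin, up to 24338. Of 1801 probe sets with several gene symbols, 862 (47.9%) were above the limit, up to 23349, beside 40.9% of probe sets with 1 symbol. Both were compared with olfactory receptor probe sets, as no array lacked RNA.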

How the results depend on the processing

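The count of 10081 genes above background lay between 7212 and 12537 over all 8 alternatives run and never moved by over 1.5 times. The low value came from unique probe sets only, which left 16782 genes, and the high one from the median of all probe sets, 52.0, as the limit. Of 33 lists, 21 had a larger share above background than all genes, and this was 20 or 21 throughout. The intestinal identity count of 6 was 2 with the 99th percentile of olfactory receptors (213.0) or the 95th percentile of other-tissue genes (197.4) as the limit, 13 with the median of all probe sets and 3 with a gene's probe sets averaged. The count of altered genes above background, 7 of 7, was 4 of the 6 still measured with unique probe sets only. Of the 33 lists, 13 had a count that moved by over 1.5 times under 1 or more of 7 alternatives, unique probe sets left aside. Beside intestinal identity, the ranges were 3 to 11 for genes silenced in colorectal cancer (7), 2 to 8 for mesenchymal (5), 5 to 11 for crypt stem (9), 6 to 10 for colon cancer genes (10), 12 to 19 for PI3K to mTOR (19) and 14 to 30 for receptor tyrosine kinases (23). They were 3 to 8 for enterocyte (4), 0 to 5 for secretory (2), 0 to 4 for fibroblast (2), 0 to 5 for endothelial (1), 0 to 3 for leukocyte (0) and 2 to 16 for other tissues (6). With unique probe sets only, which left fewer genes measured, 16 lists moved, epithelial genes to 15 of 18 and p53 targets to 12 of 15. The difference in median CpG between bright and background promoters, 17, was 12 with probe sets averaged and 18 with genes of 1 promoter only, an alternative chosen after seeing the data, as was a limit from protein-coding olfactory receptors. The cause of these changes was not tested, beyond the limits and the genes left. No paired analysis was possible because each group had 1 array.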

Other observations

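Gene families outside the lists were read from their symbols, a choice made after list results were seen. Homeobox genes, which record position along the body, were unequal between clusters: 8 of 10 HOXB genes were above background, 3 of 9 HOXC genes and 0 of 8 HOXD genes. HOXB7 was the brightest at 1338, with 1315 to 1861 on the other arrays, and HOXC6 was at 509. Annexins, which bind membranes with calcium, were above background in 9 of 11 cases, ANXA2 reaching 17124. Among S100 genes 10 of 21 were above it, S100A6 at 6867 and S100A10 at 6464. The proteasome had 31 of 34 genes above it, the chaperonin that folds actin and tubulin 7 of 8, and the mitochondrial ribosome 75 of 75. Chemokines were at background except CXCL16 (324), 1 of 35, and taste receptors gave 0 of 20. Zinc finger genes of the ZNF series, 224 of 466 (48.1%), and solute carriers, 168 of 316 (53.2%), were near the 51.0% of all genes. Both were below the 58.8% of protein-coding genes.

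Noncoding genes were dim as a class. Of 2656 long noncoding genes, 240 (9.04%) were above background, and of 493 pseudogenes 113 (22.9%), beside 51.0% of all genes. The brightest were ZFAS1 at 5867, NORAD at 2960.3 and SNHG32 at 2585. UCA1 was at 1910.0 here and between 3156 and 6734 on the other arrays.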
